A study of Mus musculus with 12 samples.

Results

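The early growth response (EGR) factors, the NAB corepressors that bind them and serum response factor (SRF), which acts upstream of them, were followed in hematopoietic stem and progenitor cells (HSPCs) of mouse bone marrow. The 6 genes Egr1, Egr2, Egr3, Nab1, Nab2 and Srf were selected by symbol among the 20792 genes of the bulk RNA sequencing files. Values were found for 5 of them, and Egr3 was not analysed here. WT male mice gave 4 groups of 3 libraries, made from marrow cells that were sorted on the surface phenotype Lin-CD127-c-kit+Sca-1+. The ND group ate normal chow with 0.5% NaCl, and the HSD group had chow with 8% NaCl and drinking water with 1% NaCl, both for 8 weeks from the age of 6 weeks. The ND ICHD7 and HSD ICHD7 groups had the same diets and then an intracerebral blood injection, a model of intracerebral hemorrhage (ICH), and were taken on day 7. After ICH both of these groups were kept on ND, so that HSD ICHD7 cells came from mice that had already left the salt. Each ND and HSD library was pooled from 3 animals, and the number of animals behind each ICHD7 library was not given in the sources used here.

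EGR proteins are zinc finger transcription factors of the immediate early class, whose mRNAs rise within minutes of a growth factor, cytokine or stress signal and then decay fast. SRF sits on CArG boxes in the promoters of such genes. With ternary complex factors of the ELK family it responds to ERK kinases, and with the MRTF cofactors it responds to actin and drives cytoskeletal genes. NAB1 and NAB2 bind EGR proteins and repress their targets, in part through the NuRD remodeler CHD4, and NAB2 is itself induced by EGR proteins, which makes a negative feedback loop. In blood, EGR1 is known for its role in the quiescence and marrow retention of stem cells.

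Promoter sequence is shown for Srf, Egr2 and Nab1 because these are the members whose promoter windows hold the letters that SRF or EGR proteins are known to bind. RefSeq windows from 250 bases before to 50 bases after each start site were used (GRCm38.p6), and 4 members matched 8 windows. No window was used for Egr1 or Egr3. Both strands were searched for the CArG box, for the EGR site GCGTGGGCG and for its close form GCGGGGGCG. The Srf stretch, chr17:46556176-46556412 on the minus strand, ends where the first exon begins. The Egr2 stretches, chr10:67537484-67537513 and chr10:67537787-67537816 on the plus strand, belong to different start sites. The Nab1 stretches are chr1:52500571-52500599, chr1:52500539-52500567 and chr1:52500468-52500496 on the minus strand. Capitals mark the matches, and single sites are shown with 10 bases on each side.
Srf: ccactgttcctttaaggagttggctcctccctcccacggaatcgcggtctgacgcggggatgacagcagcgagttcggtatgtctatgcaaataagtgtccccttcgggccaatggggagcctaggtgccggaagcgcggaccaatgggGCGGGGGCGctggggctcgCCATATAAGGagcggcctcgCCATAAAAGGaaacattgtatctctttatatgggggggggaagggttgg
Egr2, site 1: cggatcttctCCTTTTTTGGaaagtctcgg
Egr2, site 2: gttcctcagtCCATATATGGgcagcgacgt
Nab1, site 1: gccccgcggcCGCCCACGCcgggatctgc
Nab1, site 2: actcggccgcGCGTGGGCGggagccggag
Nab1, site 3: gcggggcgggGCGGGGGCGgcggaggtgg

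The Srf window held 2 CArG boxes, which begin 82 and 62 bases before its start site, and a GCGGGGGCG beginning 101 bases before it. Of the 5 Egr2 start sites, 4 had a CArG box in their window. Some of these windows overlap and share a box, so that together they held only the 2 boxes printed above. Nab1 held GCGTGGGCG at 2 places, in site 1 on the opposite strand, and GCGGGGGCG at 1, and no match overlapped another. No match was found in the Nab2 window. Among all 32851 promoter windows of this length, 1.63% held a CArG box, 0.612% held GCGTGGGCG and 2.91% held GCGGGGGCG. A match describes the letters in these windows and is not a measured binding site.

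Expression is given as CPM, the reads of a gene scaled to library size, as deposited. Where genes are compared with each other it is divided by the kb of exons, and coordinates of genes are those of GENCODE M21 (GRCm38). The libraries held 8678304 to 27491973 reads in the listed genes. Of the markers used for the sort, Kit was at 329 to 487 CPM and Ly6a, the gene of Sca-1 and one of a family of similar genes, at 2.42 to 6.72 CPM. Summed CPM of 15 marrow macrophage genes was 518 in ND replicate 1 and 907 in HSD replicate 2, against 99.4 to 216 in the other 10 libraries. The sum over 10 HSPC markers was 1354, 1313 and 886 CPM in the HSD ICHD7 libraries, all below the 1468 to 1673 CPM of the other 9, and its lowest value was that of HSD ICHD7 replicate 3, the deepest library. Without ICH, 1393 to 1755 genes of a library had no read, against 2 to 29 after ICH. Whether this difference came from ICH or from how the libraries were made cannot be told apart.

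Egr1 (ENSMUSG00000038418; chr18:34859823-34864984, plus strand, 4.484 kb of exons) was the member that differed most between diets without ICH. Its ND libraries had 72.9, 88.6 and 61.3 CPM, its HSD libraries 41.6, 40.1 and 38.2 CPM. In ND ICHD7 it was at 56.8, 40.4 and 34.4 CPM, and in HSD ICHD7 at 40.1, 23.9 and 21.5 CPM. All HSD libraries lay below all ND libraries, as for 5.75% of the genes tested, and all ND ICHD7 libraries lay below all ND libraries, as for 14.3%. The ND ICHD7 and HSD ICHD7 libraries overlapped, as did HSD and HSD ICHD7. These values rest on 324 to 1347 reads per library. The coefficient of variation of Egr1 over the 12 libraries was 42.3%, above that of 97.8% of the 4712 genes with a mean CPM within 2-fold of its own, whose median was 11.8%.

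**Figure D1:**
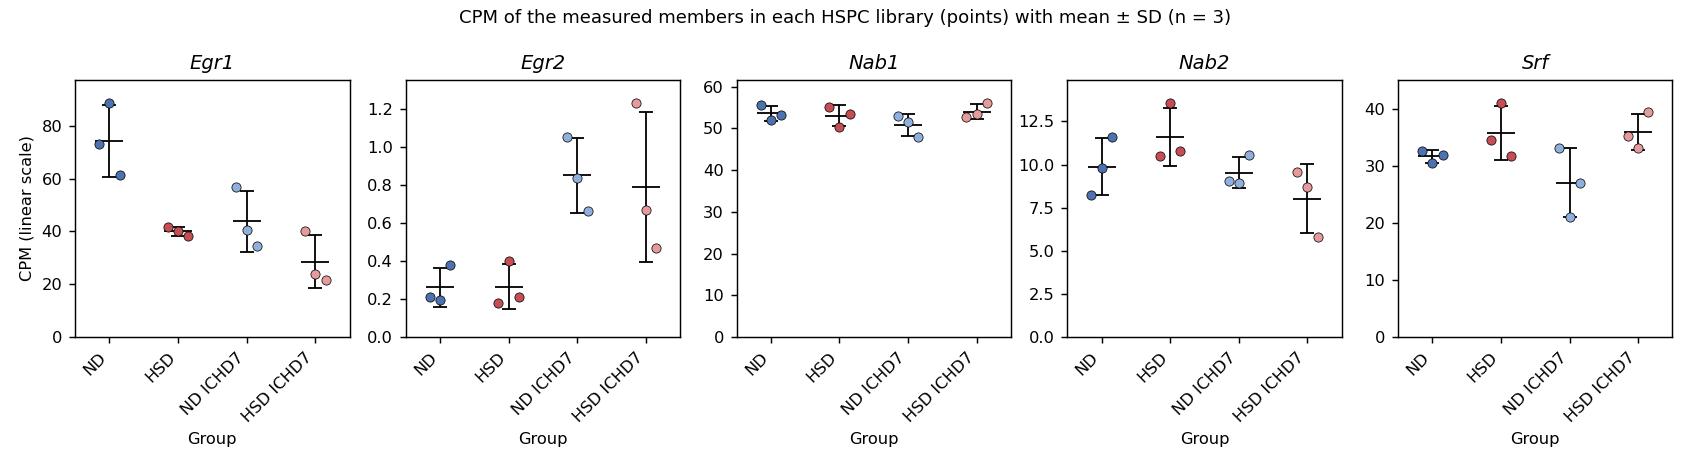
CPM of Egr1, Egr2, Nab1, Nab2 and Srf (y axes, linear and from 0, scaled per gene) in the 3 HSPC libraries of ND, HSD, ND ICHD7 and HSD ICHD7 (x axis). Points are libraries and bars are mean ± SD. The HSD libraries of Egr1 sit between 38.2 and 41.6 CPM, all below the ND libraries, while the libraries of Nab1 all sit between 47.9 and 56.1 CPM.

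Without ICH, mean Egr1 was 74.3 ± 13.7 CPM (SD, n = 3) on ND and 39.98 ± 1.68 CPM (SD, n = 3) on HSD. On the log2(CPM + 0.5) scale it fell by 0.87 (SE 0.116, 95% confidence interval −1.12 to −0.62, limma adjusted p = 0.0145), which is a change of −45.3% with an interval from −54.0% to −34.8%. It ranked 8 of 16787 genes by p. Of the 4 members tested in this comparison, 1 was called at an adjusted p under 0.05, against 0.0774% of all genes. In these bulk samples, fewer cells that express a gene and less of its RNA per cell cannot be told apart. The libraries high in macrophage genes held the middle Egr1 value of their group, 72.9 CPM on ND and 40.1 CPM on HSD. Without both, the difference was −0.88 (limma adjusted p = 0.00234). The call was lost with no filter on low values (limma adjusted p = 0.426), in a fit of all 12 libraries (0.606), and on leaving out ND replicate 1 (0.0550), HSD replicate 1 (0.0625) or HSD replicate 3 (0.0561), while the difference stayed between −0.90 and −0.84 in these fits.

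After ICH, mean Egr1 was 43.9 ± 11.6 CPM (SD, n = 3) on ND and 28.5 ± 10.1 CPM (SD, n = 3) on HSD. The difference of −0.64 (SE 0.246, interval −1.19 to −0.08) did not pass (limma adjusted p = 0.285). HSD ICHD7 replicate 1, at 40.1 CPM, stood near ND ICHD7 replicate 2, at 40.4 CPM, and above ND ICHD7 replicate 3. The summed CPM of the 10 HSPC markers was lower in all HSD ICHD7 libraries than in all ND ICHD7 libraries. Of the single markers, Kit, Ly6a, Procr and Slamf1 overlapped between these groups and the others did not. The lower sum moves with every diet difference after ICH, and its part in them was not tested. Without HSD ICHD7 replicate 3, the lowest in this sum, the difference of Egr1 was −0.46 (limma adjusted p = 0.522). In this comparison 0 of the 5 members and 0 of 20079 genes (0.0%) were called by limma, while 3134 genes (15.6%) had an unadjusted p under 0.05. EdgeR's quasi-likelihood test also called 0 genes here and DESeq2 called 98.

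The diet difference of Egr1 after ICH minus that without ICH was 0.23 (SE 0.305, interval −0.42 to 0.89, limma adjusted p = 0.846). Its interval holds differences in both directions. Of all 20393 genes tested, limma, edgeR and DESeq2 each called 0 for this difference, and 1703 (8.35%) had an unadjusted limma p under 0.05. In simulated data limma recovered 23.7% of 2-fold changes for this difference, against 75.5% for HSD against ND without ICH. The 0 calls therefore do not show that the diet effects were alike.

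On ND, Egr1 was lower in ICHD7 HSPCs than without ICH. The difference was −0.77 (SE 0.181, interval −1.17 to −0.36, limma adjusted p = 0.0147), a call for 1 of 4 members tested, against 16.7% of 19387 genes, and 3.23% of genes were called lower. The call was lost under the filter of CPM above 10 that the study states (limma adjusted p = 0.0822). It was also lost without ND replicate 2 (0.0620), ND ICHD7 replicate 2 (0.0724) or ND ICHD7 replicate 3 (0.108). On HSD the difference was −0.53 (SE 0.205, interval −0.996 to −0.07) and missed the threshold (limma adjusted p = 0.175), as did all 4 members tested, where 6.58% of 18082 genes were called. An unadjusted limma p under 0.05 was reached by 2 of the 4, Egr1 and Nab2, beside 21.5% of all genes. Without HSD ICHD7 replicate 1 it was −0.80 (limma adjusted p = 0.0497). Each of these comparisons shares its control libraries with a diet comparison.

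**Figure D2:**
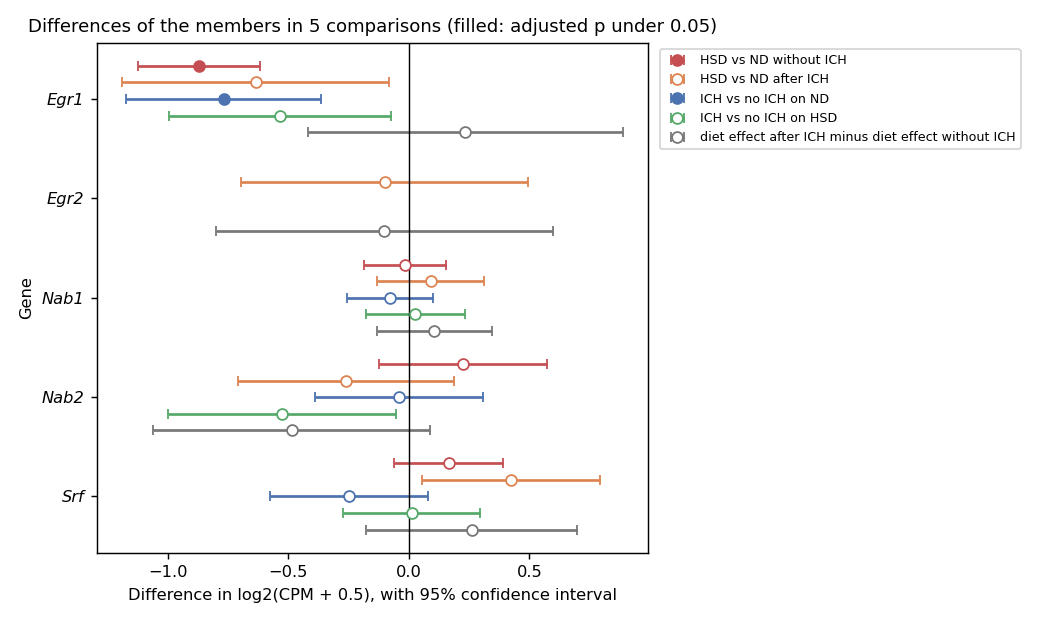
Differences in log2(CPM + 0.5) (x axis) of Egr1, Egr2, Nab1, Nab2 and Srf (y axis) with 95% confidence intervals, in the 4 comparisons between groups and for the diet difference after ICH minus that without ICH (colors). Filled points passed an adjusted p under 0.05 in limma. The filled points are those of Egr1 for HSD against ND without ICH, at −0.87, and for ICH on ND, at −0.77, and Egr2 is drawn only where it had enough reads to be tested.

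Egr2 (ENSMUSG00000037868; chr10:67535475-67542188, plus strand, 3.398 kb of exons) is a paralog of Egr1 with a known role in myeloid and lymphoid cells, and its reads were few. The ND libraries had 0.210, 0.197 and 0.381 CPM and the HSD libraries 0.181, 0.402 and 0.211 CPM. After ICH it was at 1.05, 0.836 and 0.661 CPM on ND and at 1.23, 0.665 and 0.470 CPM on HSD. Each library held 2 to 18 reads of Egr2, and the ICHD7 libraries were all higher than those without ICH on the same diet. Such a separation was found for 19.1% of the genes tested on ND and 14.2% on HSD. Egr2 had too few reads to be among these tested genes, and a share for genes of its low level is not given here. Egr2 passed the filter of 10 reads in 3 libraries only in the comparison after ICH and in the fit of all libraries. There the diet difference was −0.10 (SE 0.265, limma adjusted p = 0.870), with an interval from −0.70 to 0.50.

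The median over genes that blood cells do not use was, like Egr2, higher in the ICHD7 libraries on each diet, but not alike between diets. The median CPM per kb over 11 such genes, from liver, heart, muscle, brain and kidney, was 0.0751 to 0.105 in the ND libraries and 0.00896 to 0.0314 in the HSD libraries. In ND ICHD7 it was 0.265 to 0.270 and in HSD ICHD7 it was 0.120 to 0.233. The single genes did not all follow this median. Apob on HSD had 2.59, 2.11 and 4.23 CPM without ICH and 3.76, 2.37 and 1.55 CPM after ICH. Egr2 itself had a mean of 0.0773 CPM per kb on ND, 0.0779 on HSD, 0.250 in ND ICHD7 and 0.232 in HSD ICHD7. Without ICH the group mean of the median over these genes was lower on HSD, at 0.0184 against 0.0899 CPM per kb, while the means of Egr2 were close. Egr2 lay above the median of these genes in 1 of 3 ND, 3 of 3 HSD, 1 of 3 ND ICHD7 and 3 of 3 HSD ICHD7 libraries. The part of this shared level in the Egr2 values was not tested.

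**Figure D3:**
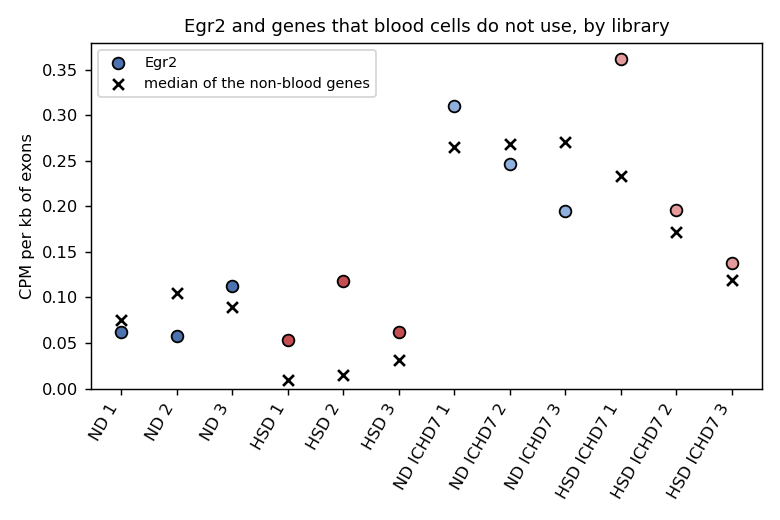
Level in CPM per kb of exons (y axis, linear) of Egr2 (circles, colored by group) and the median of 11 genes that blood cells do not use (crosses) in each of the 12 libraries (x axis). Both were higher in the ICHD7 libraries, where Egr2 lay between 0.138 and 0.362 CPM per kb and the crosses between 0.120 and 0.270.

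Nab1 (ENSMUSG00000002881; chr1:52457294-52500679, minus strand, 4.1 kb of exons), the broadly expressed corepressor, varied least among the 5 members. It had 55.6, 51.9 and 53.3 CPM on ND, 55.2, 50.3 and 53.6 on HSD, 52.9, 51.5 and 47.9 in ND ICHD7 and 52.7, 53.4 and 56.1 in HSD ICHD7. The highest library was 1.17-fold the lowest, and the groups overlapped in every comparison. Its coefficient of variation, 4.35%, was above that of only 0.652% of 4447 genes of like level, whose median was 11.6%. The limma difference between diets was −0.02 without ICH (interval −0.18 to 0.15, adjusted p = 0.983) and 0.09 after ICH (interval −0.13 to 0.31, adjusted p = 0.660). Without ICH the interval reached from −12.0% to 11.3%, so that a change of Nab1 like that of Egr1 lay outside it.

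Nab2 (ENSMUSG00000025402; chr10:127660918-127668568, minus strand, 2.941 kb of exons), the corepressor that EGR proteins induce, had 102 to 183 reads per library. It was measured at 8.26, 9.80 and 11.6 CPM on ND and at 10.5, 13.6 and 10.8 CPM on HSD. The ND ICHD7 libraries had 9.07, 8.96 and 10.6 CPM, and the HSD ICHD7 libraries 9.56, 8.72 and 5.78 CPM. Groups overlapped between diets, with the highest value in HSD replicate 2, which was high in macrophage genes, and the lowest in HSD ICHD7 replicate 3. HSD minus ND was 0.22 without ICH (SE 0.159, interval −0.12 to 0.57, limma adjusted p = 0.814) and −0.26 after ICH (SE 0.200, interval −0.71 to 0.19, limma adjusted p = 0.519). Without ND replicate 1 and HSD replicate 2 the first of these was −0.0045, and without HSD ICHD7 replicate 3 the second was −0.055.

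On HSD, all Nab2 values after ICH lay below all those without ICH, where 14.5% of genes showed such a separation. The difference of −0.53 (SE 0.210, interval −1.001 to −0.05) had an unadjusted limma p of 0.0330 and did not pass over all genes (adjusted p = 0.190), and without HSD ICHD7 replicate 3 it was −0.32. On ND the same comparison gave −0.04 (limma adjusted p = 0.894). The diet difference after ICH minus that without ICH was −0.49 (limma, unadjusted p = 0.0911, adjusted p = 0.629).

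Srf (ENSMUSG00000015605; chr17:46548329-46556175, minus strand, 2.893 kb of exons) did not show the lower values on HSD seen for Egr1. On ND it had 32.7, 30.4 and 31.9 CPM, and on HSD 34.6, 41.0 and 31.7 CPM. After ICH it had 33.1, 21.0 and 26.9 CPM on ND and 35.3, 33.2 and 39.4 CPM on HSD. Without ICH the diets overlapped and the highest value was again that of HSD replicate 2, whereas after ICH all HSD libraries lay above all ND libraries, from 33.2 against 33.1 CPM upward. Groups without overlap were found for 23.4% of the genes tested in that comparison, and 2015 of the 20079 had all HSD libraries higher.

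Without ICH, HSD minus ND for Srf was 0.16 (SE 0.104, interval −0.06 to 0.39, limma adjusted p = 0.784), and 0.06 without HSD replicate 2. After ICH it was 0.43 (SE 0.164, interval 0.06 to 0.79), with an unadjusted limma p of 0.0283 and an adjusted p of 0.285. An unadjusted p under 0.05 was reached there by 2 of the 5 members, Egr1 and Srf, beside 15.6% of all genes. Between ICH and no ICH the difference was −0.25 on ND (limma adjusted p = 0.306) and 0.01 on HSD (limma adjusted p = 0.968).

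Per kb of exons, the order of the members changed with the group. In ND HSPCs Egr1 was highest at 16.6 ± 3.05 CPM per kb (SD, n = 3), followed by Nab1 at 13.1 ± 0.447, Srf at 10.95 ± 0.394, Nab2 at 3.36 ± 0.571 and Egr2. The libraries of neighbors in this order did not overlap, although the lowest Egr1 value, 13.7, was close to the highest of Nab1, 13.6. In HSD HSPCs Nab1 (12.9 ± 0.606) and Srf (12.4 ± 1.64) overlapped at the top and Egr1 came below both at 8.92 ± 0.375. In ND ICHD7 the range of Egr1, 7.68 to 12.7 CPM per kb, overlapped those of Nab1 and Srf, while all Nab1 libraries, from 11.7 up, lay above all Srf libraries, up to 11.5. In HSD ICHD7 Egr1, at 6.36 ± 2.26, was again below Nab1 and Srf, at 13.2 ± 0.435 and 12.4 ± 1.09, and Nab2 was lower still, at 2.73 ± 0.675.

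The ratio of Egr1 to its inducible corepressor Nab2, per kb, was 5.79, 5.93 and 3.46 in the ND libraries and 2.60, 1.94 and 2.33 in the HSD libraries. In ND ICHD7 it was 4.11, 2.96 and 2.14, and in HSD ICHD7 it was 2.75, 1.80 and 2.43. ND and HSD did not overlap without ICH but did after it. Relative to Srf, Egr1 was at 1.24 to 1.88 on ND and 0.631 to 0.779 on HSD, and at 0.824 to 1.24 in ND ICHD7 and 0.352 to 0.733 in HSD ICHD7. These ratios are built from the values above and carry no test of their own.

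**Figure D4:**
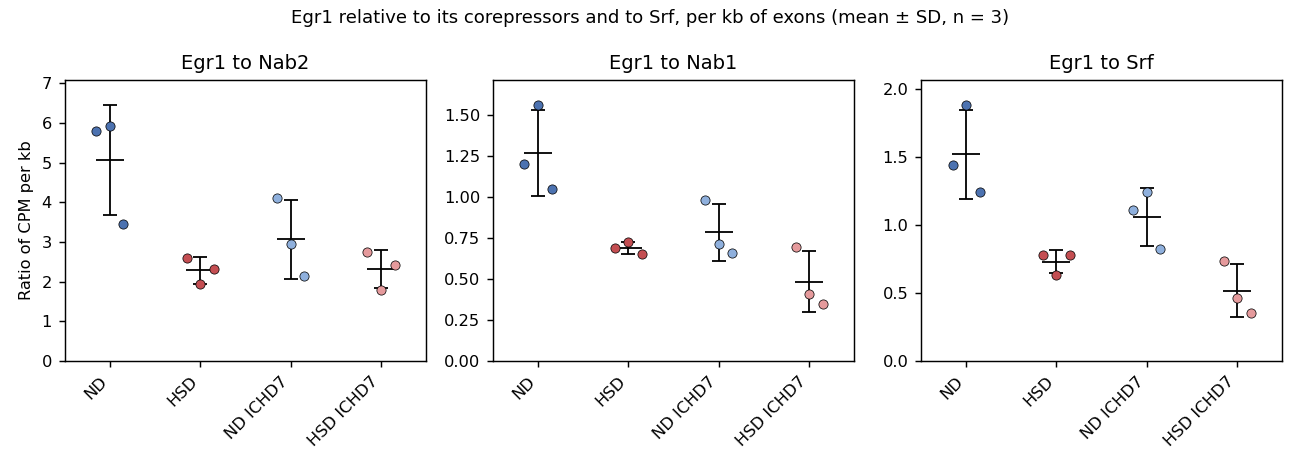
Ratio of Egr1 to Nab2, Nab1 and Srf in CPM per kb of exons (y axes, linear and from 0) in the 3 libraries of each group (x axis). Points are libraries and bars are mean ± SD. Without ICH, the HSD libraries lie below the ND libraries in each ratio, for Nab2 at 1.94 to 2.60 against 3.46 to 5.93.

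No tested partner of SRF was called between diets by limma. Of 6 cofactors, Elk1, Elk3, Elk4, Mrtfa and Mrtfb were tested without ICH and 0 of 5 had an unadjusted limma p under 0.05, with a median difference of 0.01 on the log2 scale beside 0.02 over all genes. Elk4, a ternary complex factor, was the most abundant of them, at 94.1 to 118 CPM. After ICH 0 of 6 had an unadjusted limma p under 0.05, and the median was −0.04 beside −0.03 over all genes.

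Among 18 genes of the ERK cascade, from Grb2 and the Ras genes to the RSK and MSK kinases, 1 had an unadjusted limma p under 0.05 without ICH, higher on HSD, where 3.65% of all genes were higher at that p, and 0 were called. It was Mapk3, the gene of ERK1, at 22.3 ± 0.456 CPM on ND and 28.3 ± 4.24 CPM on HSD (SD, n = 3; difference 0.33, limma adjusted p = 0.583). After ICH 4 of 18 reached that unadjusted p, all higher on HSD, where 5.42% of all genes were. When single libraries were left out, 1 to 3 of them were higher at that p. Of the 18, 6 were higher and 12 lower on HSD without ICH, with a median of −0.02, and 15 higher and 3 lower after ICH, with a median of 0.13. Over all genes, 9168 of 16787 were higher without ICH, with a median of 0.02, and 9205 of 20079 after ICH, with a median of −0.03. Mapk3 was at 23.3 ± 0.947 CPM on ND and 31.4 ± 3.97 CPM on HSD (SD, n = 3; difference 0.41, limma adjusted p = 0.260). Hras differed by 0.36 and Rps6ka2, an RSK kinase, by 0.61 (limma adjusted p = 0.287 and 0.296).

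Inhibitors of ERK signaling were mostly lower on HSD, 8 of 10 both without and after ICH, beside 45.4% and 54.2% of all genes. They were not tested against the cascade. Of these 10 phosphatases and Sprouty and Spred genes, 3 had an unadjusted limma p under 0.05 without ICH, all lower on HSD, where 3.28% of all genes were lower at that p, and 0 were called. Dusp5, a nuclear ERK phosphatase, was at 19.3 ± 1.36 CPM on ND and 14.7 ± 2.01 CPM on HSD (SD, n = 3; difference −0.39, limma adjusted p = 0.536). Dusp6, a cytoplasmic ERK phosphatase, differed by −0.35 and Dusp1 by −0.31 (limma adjusted p = 0.583 and 0.594). The median of the list was −0.21 without ICH and −0.22 after ICH, beside 0.02 and −0.03 over all genes. After ICH 2 of 10 reached the unadjusted p, Dusp5 with −0.53 and Dusp2 with −0.39 (limma adjusted p = 0.275 and 0.310), where 10.2% of all genes were lower at that p.

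Immediate early genes known as targets of SRF with ternary complex factors were lower on HSD as a list. Of 14 such genes 12 had values and 11 were tested without ICH, and all 11 were lower on HSD, against 45.4% of all genes. An unadjusted limma p under 0.05 was reached by 8 of them, all lower, beside 3.28% of all genes, and 2 were called over all genes. The median difference was −0.47. Without ND replicate 1 and HSD replicate 2 the count was 10, without ND replicate 2 it was 5, and in a fit of all libraries 4. The list was chosen with earlier results of these data known. It holds Nr4a1, which the study reports as lower on HSD with or without ICH. The counts of this list, here and after ICH, are therefore not an independent test.

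Nr4a1, an orphan nuclear receptor of the immediate early class, had 12.3, 15.1 and 14.8 CPM in the ND libraries and 4.88, 4.42 and 2.96 CPM in the HSD libraries. It fell by 1.69 on the log2 scale (SE 0.187, limma adjusted p = 0.00526). Fos, the AP-1 subunit, had 120, 171 and 165 CPM on ND and 95.8, 76.0 and 86.2 CPM on HSD, and fell by 0.81 (SE 0.127, limma adjusted p = 0.0470). Ier2, an immediate early gene of the nucleus, was at 73.1 ± 5.51 and 51.1 ± 6.98 CPM (SD, n = 3; difference −0.52, limma adjusted p = 0.125). No HSD library of these 3 genes reached the lowest ND library, as for 5.75% of all genes tested. They were named for the smallest unadjusted p of their list, which favors such a separation.

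After ICH, all 12 genes of this list with values were tested and all were lower on HSD, against 54.2% of all genes, with a median of −0.43. An unadjusted limma p under 0.05 was reached by 4, where 10.2% of all genes were lower at that p, and 0 were called. Nr4a1 was at 5.57 ± 0.403 CPM on ND and 2.68 ± 1.14 CPM on HSD (SD, n = 3; difference −0.999, limma adjusted p = 0.256). Ier2 differed by −0.48 and Zfp36, which makes mRNAs unstable, by −0.73 (limma adjusted p = 0.256 and 0.260). On ND, 4 of the 12 were called lower in ICHD7 than without ICH, beside 3.23% of all genes, and on HSD 0 of 11.

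**Figure D5:**
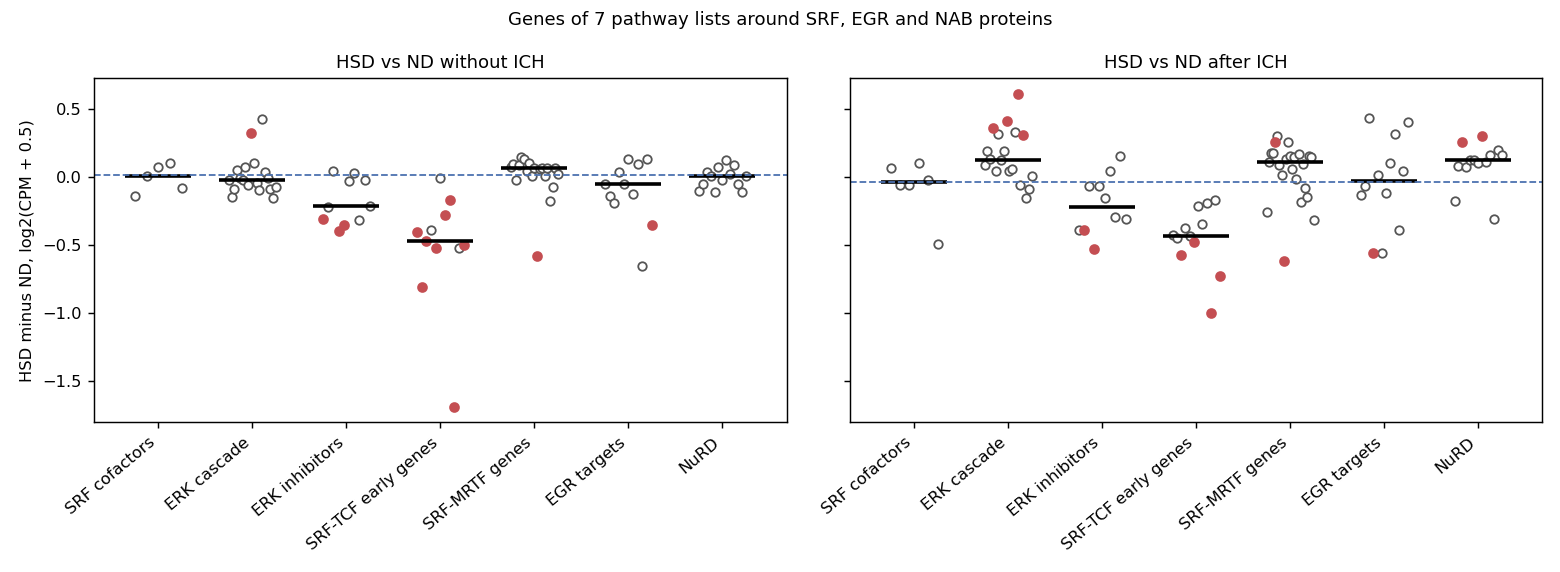
HSD minus ND in log2(CPM + 0.5) (y axis) for the genes of 7 lists (x axis) without ICH (left) and after ICH (right). Each point is a gene, red points had an unadjusted limma p under 0.05, black bars are list medians and the dashed line is the median of all genes tested. Without ICH the immediate early genes have a median of −0.47, and the cytoskeletal SRF genes a median of 0.07.

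Cytoskeletal genes known as targets of SRF with MRTF differed from that pattern in their values. Of 24 such genes 23 had values and 19 were tested without ICH, with a median of 0.07, and 1, Tagln, had an unadjusted limma p under 0.05, lower on HSD, where 3.28% of all genes were lower at that p. Tagln, an actin-binding protein of smooth muscle, was at 2.53 ± 0.240 CPM on ND and 1.57 ± 0.512 CPM on HSD (SD, n = 3; difference −0.58, limma adjusted p = 0.680). After ICH the median of 23 genes was 0.11, with Fermt2 lower at −0.62 and Actn4 higher at 0.26 (limma adjusted p = 0.270 and 0.315). These are 2 of 23 at an unadjusted limma p under 0.05, beside 15.6% of all genes. Fermt2 had few reads, at 1.03 ± 0.195 CPM on ND and 0.497 ± 0.123 CPM on HSD (SD, n = 3). Without ICH its libraries were at 0 to 0.201 CPM. Actn4 was at 138 ± 7.06 CPM on ND and 166 ± 18.9 CPM on HSD after ICH (SD, n = 3). The lists were not tested against each other.

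Genes described as EGR targets in other cell types showed no common direction. Of 15, 11 were tested without ICH, 4 higher and 7 lower on HSD with a median of −0.05. Vegfa, the vascular growth factor, was the 1 with an unadjusted limma p under 0.05, where 3.28% of all genes were lower, at 10.3 ± 0.225 CPM on ND and 8.01 ± 0.941 CPM on HSD (SD, n = 3; difference −0.35, limma adjusted p = 0.670). After ICH 6 of 12 were higher and 6 lower, and 1, Icam1, an adhesion molecule, had an unadjusted p under 0.05, where 10.2% of all genes were lower (difference −0.55, limma adjusted p = 0.263). These lists come from other cells, so that they do not measure the activity of EGR proteins here.

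The 13 NuRD subunits, the complex that NAB proteins recruit, had a median of 0.01 between diets without ICH, with 0 at an unadjusted limma p under 0.05. Chd4, the subunit that NAB proteins bind, was at 547 to 647 CPM in these 6 libraries. After ICH 11 of 13 were higher on HSD with a median of 0.13, beside 9205 of 20079 genes and a median of −0.03 over all genes. Mbd3 and Gatad2a had an unadjusted limma p under 0.05, with differences of 0.31 and 0.26 (adjusted p = 0.308 and 0.319), where 5.42% of all genes were higher at that p.

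Genes with a CArG box in the promoter window were also counted between diets. Of 12903 genes with a window and values, 205 held the box and 161 of these were tested without ICH, with a median difference between diets of 0.02 and 4 lower and 11 higher at an unadjusted limma p under 0.05. Over all 10629 genes tested with a window the median was 0.03, with 220 lower and 434 higher. After ICH the 200 such genes tested had a median of −0.03, with 23 lower and 8 higher. Over all 12696 genes tested with a window it was −0.02, with 1271 lower and 752 higher. Of the 12 early genes with values, 8 had a window and 1 of these, Zfp36, held the box. Among cytoskeletal SRF genes with a window, 5 of 20 held it, and among ERK inhibitors 1 of 8. In each of the other lists 0 did. Only exact matches within 250 bases before and 50 bases after a start site were counted. A box farther away or with another base was not seen.

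Over the 12 libraries, the genes with values most like Egr1 among 14828 were Ppp1r15a, a phosphatase subunit of the stress response, with r = 0.95, Zfp36 with 0.93 and Jun, an AP-1 subunit, with 0.92. Ppp1r15a had a mean of 42.8 CPM on ND, 24.1 on HSD, 29.8 in ND ICHD7 and 21.4 in HSD ICHD7, the same order of groups as Egr1. For Nab2 these were Rcn3, a calcium-binding protein of the secretory pathway, Sorbs3, a cytoskeletal adaptor, and P2rx1, an ATP-gated channel, each with r = 0.94. For Srf they were Mef2d, a transcription factor, with 0.96, and Gipc1, an adaptor protein, and Creb3l2, a transcription factor of the ER membrane, with 0.95. After group means were removed, r was 0.77 to 0.86 for the genes named with Egr1, 0.89 to 0.91 for those with Nab2 and 0.91 to 0.95 for those with Srf. These genes were chosen for their likeness, from libraries that share groups and depth, so that r describes these libraries only. Among the members, r over the 12 libraries was 0.35 between Egr1 and Nab2, −0.18 between Egr1 and Srf and −0.55 between Nab1 and Nab2.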

How the data were processed

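Libraries were made with a stranded SMART-Seq kit. According to the study and the submitters' processing notes, the authors mapped reads to mm10, used featureCounts for counting and edgeR 3.24.3 for TMM scaling, and the deposited values are CPM per gene and library. Values were whole multiples of the CPM that 1 read is worth, within 0.01 read, so that read numbers could be recovered for the 20792 genes. The strand setting of the counting was not given in the sources used here. Groups and replicate numbers follow the labels.

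Diets and ICH were compared by limma 3.58.1 (R 4.3.3) with a variance trend on log2(CPM + 0.5), in fits of 6 libraries, for genes that reached 10 reads in 3 or more libraries. An interaction term in 1 fit of 12 libraries compared the diet effects with and without ICH. A call was a Benjamini-Hochberg adjusted p under 0.05 over all genes tested. Fold changes on this scale understate those of low genes. With 3 libraries per group, p-values measure the spread between these libraries, and for ICHD7 nothing in the sources used here says whether they came from separate animals. The fits were tested on simulated data.

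Alternatives were edgeR 4.0.16 (quasi-likelihood) and DESeq2 1.42.0 on recovered reads, RLE scaling, pseudocounts of 0.1 and 1, other filters, a replicate block, a joint fit of the 12 libraries and the omission of libraries. Exon lengths are from GENCODE M21 and promoters from RefSeq (GRCm38.p6). The members and lists were chosen with earlier results of these data known. From each pathway list, up to 3 genes with the smallest unadjusted p under 0.05 per diet comparison were named, and for Egr1, Nab2 and Srf the 3 genes with the highest Pearson r. Elk4, Chd4 and Zfp36 with its CArG box were named beyond this rule, after their values were seen.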

Additional observations from a re-analysis of the deposited data

How the results depend on the processing

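Of 362 values of the members under alternative settings, 336 kept direction and side of the threshold, 9 lost a call, 1 gained one and 16 changed sign. The cause was not tested where a call changed. Most sign changes concerned small differences, but Nab2 without ICH (0.22) and the Egr1 difference of diet effects (0.23) also changed sign. Without both libraries high in macrophage genes, HSD minus ND was 0.047 for Nab1 and −0.0045 for Nab2 without ICH, and the difference of the diet effects was 0.071 for Egr2. Leaving out single libraries gave −0.045 to 0.021 for Nab1 and 0.11 to 0.34 for Nab2 without ICH, −0.33 to 0.083 for Egr2 after ICH, −0.16 to 0.076 for Nab2 with ICH on ND, and −0.0094 to 0.057 for Nab1 and −0.070 to 0.11 for Srf with ICH on HSD. For the difference of diet effects it gave −0.036 to 0.43 for Egr1 and −0.34 to 0.082 for Egr2.

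For HSD against ND without ICH, where 1 member and 13 genes were called, no filter gave 0 members and 1 gene, the fit of all libraries 0 and 0, DESeq2 65 genes, leaving out both libraries high in macrophage genes 91 genes, and leaving out single libraries 0 to 1 members and 8 to 22 genes. After ICH, DESeq2 called 98 genes and the fit of all libraries 319. For ICH on ND, with 1 member and 3245 genes, no filter gave 2 members, with Egr2 the second, the study filter 0 members and 122 genes, and leaving out single libraries 0 to 1 members and 264 to 2995 genes. For ICH on HSD, with 1189 genes, these were 2384 without a filter, 47 under the study filter, 2047 in the fit of all libraries, and 0 to 1 members and 56 to 671 genes without single libraries. Samples with the same replicate number did not deviate together (18 pairs, r from −0.191 to 0.0943), and a replicate block changed no call of a member and called 16, 0, 3304, 1081 and 0 genes in the 5 comparisons. Of 651 list values, 551 stayed within 1.5 times or the spread and 100 moved. The 3 libraries of a group and, for Egr2, at most 18 reads per library set the precision.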
